A study of Mus musculus with 6 samples.

Results

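The genes described here are 10 regulators of the passage from G2 into mitosis, grouped under the label CCAAT-driven, for promoters with CCAAT boxes. They include the cyclin genes Ccnb1, Ccnb2 and Ccna2, the kinase genes Cdk1 and Plk1, and the phosphatase genes Cdc25b and Cdc25c. The others are the topoisomerase gene Top2a, the survivin gene Birc5 and the transcription factor gene Foxm1. All 10 were listed by name, with no measured value in the rule although earlier results of these data were known. They are 10 of 16490 genes tested. Their levels were measured in neuro2a (N2a) cells, a mouse neuroblastoma line, on 1-color Agilent SurePrint G3 mouse arrays. Control cells (3 arrays) had received an empty miR RNAi vector, and knockdown cells (3 arrays) had received vectors whose miR RNAi inserts target NF-YA and NF-YC. The vectors were delivered by transient transfection, which need not reach every cell, and the RNA came from the whole transfected culture. The labels do not say whether the 3 replicates of a group came from separate cultures, so the p-values measure only the spread between these arrays, which may be technical. In such bulk RNA, fewer cells in G2 or mitosis and less RNA per cell cannot be told apart.

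NF-Y is a trimer of NF-YA, NF-YB and NF-YC that binds the CCAAT box, a short promoter element usually placed a little upstream of the start of transcription. Many genes that switch on in G2 lack a TATA box and carry several CCAAT boxes instead, often with a cell cycle genes homology region (CHR) near the start site through which the DREAM repressor and the Myb-MuvB activator act. The proteins they encode form 1 circuit: Cdk1 bound to cyclin A or cyclin B starts mitosis once Cdc25 phosphatases remove its inhibitory phosphates, and Plk1 and Foxm1 feed back on that switch.

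Promoter windows from RefSeq on build GRCm38.p6, running from 250 bases before to 50 after a start site, were found for 7 of the 10 genes, the others being Ccna2, Cdc25c and Foxm1. CCAAT was searched on both strands with overlaps allowed. At least 1 match was present in 6 of the 7 windows, and 2 or more in 4 of them. Over all 32851 windows of the same length, 37.4% held at least 1 CCAAT, 11.7% at least 2 and 3.37% at least 3. The genes were listed for promoters with CCAAT boxes, so shares above these were built into the choice and are no result. Birc5 held none, so the label CCAAT-driven was not borne out by the letters of its window. The bases upstream of the start site are printed for the 4 genes with 2 or more matches, so that the number and spacing of the boxes, which differ between them, can be compared. They read 5′ to 3′ along the gene, with capitals on each CCAAT or, where the box lies on the other strand, ATTGG. All 4 genes lie on the minus strand, Ccnb2 at chr9:70421555-70421804, Ccnb1 at chr13:100786487-100786736, Cdk1 at chr10:69352913-69353162 and Top2a at chr11:99024190-99024439.
Ccnb2: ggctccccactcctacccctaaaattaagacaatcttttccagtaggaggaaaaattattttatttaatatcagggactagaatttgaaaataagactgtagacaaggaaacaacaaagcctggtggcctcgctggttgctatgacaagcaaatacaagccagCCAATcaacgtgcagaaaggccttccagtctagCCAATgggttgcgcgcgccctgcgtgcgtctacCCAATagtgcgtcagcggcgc
Ccnb1: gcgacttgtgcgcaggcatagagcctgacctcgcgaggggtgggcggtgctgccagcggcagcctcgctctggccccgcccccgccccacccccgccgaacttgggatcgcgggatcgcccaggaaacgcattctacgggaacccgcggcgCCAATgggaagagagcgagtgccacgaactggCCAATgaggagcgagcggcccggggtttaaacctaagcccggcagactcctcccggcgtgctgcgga
Cdk1: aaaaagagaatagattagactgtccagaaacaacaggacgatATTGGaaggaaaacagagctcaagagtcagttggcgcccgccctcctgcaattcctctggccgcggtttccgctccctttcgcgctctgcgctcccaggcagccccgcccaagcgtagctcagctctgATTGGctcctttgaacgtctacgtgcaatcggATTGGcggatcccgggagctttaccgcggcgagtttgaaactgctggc
Top2a: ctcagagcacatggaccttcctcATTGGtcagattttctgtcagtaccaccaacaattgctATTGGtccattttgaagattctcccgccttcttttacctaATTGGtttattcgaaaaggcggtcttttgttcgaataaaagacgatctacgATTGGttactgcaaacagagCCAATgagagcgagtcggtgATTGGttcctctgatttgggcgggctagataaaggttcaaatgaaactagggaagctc

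Counted from the first base of each box to the start site, the 3 boxes of Ccnb2 began at -87, -54 and -21, each 33 bases from the next. The 2 boxes of Ccnb1 began at -99 and -67 and lay 32 bases apart. Cdk1 had boxes at -208, -80 and -48, the last pair also 32 bases apart. Thus the cyclin B genes and their kinase gene shared a spacing of 32 or 33 bases. Top2a held 6 boxes, at -227, -189, -149, -98, -78 and -58, with gaps of 20 to 51 bases, a number reached by few promoters (5 or more in 0.271% of windows). Cdc25b and Plk1 held 1 box each, at -28 and -14. The CHR core TTTGAA, searched on both strands, was in 4 of the 7 windows (Ccnb2, Cdk1, Top2a and Plk1) against 17.9% of all windows, and the GC box GGGCGG was in all 7 against 35.7%. TATAAA was in 0 of the 7 and in 13.6% of all windows. Such matches describe the letters and are not binding sites shown here.

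**Figure D1:**
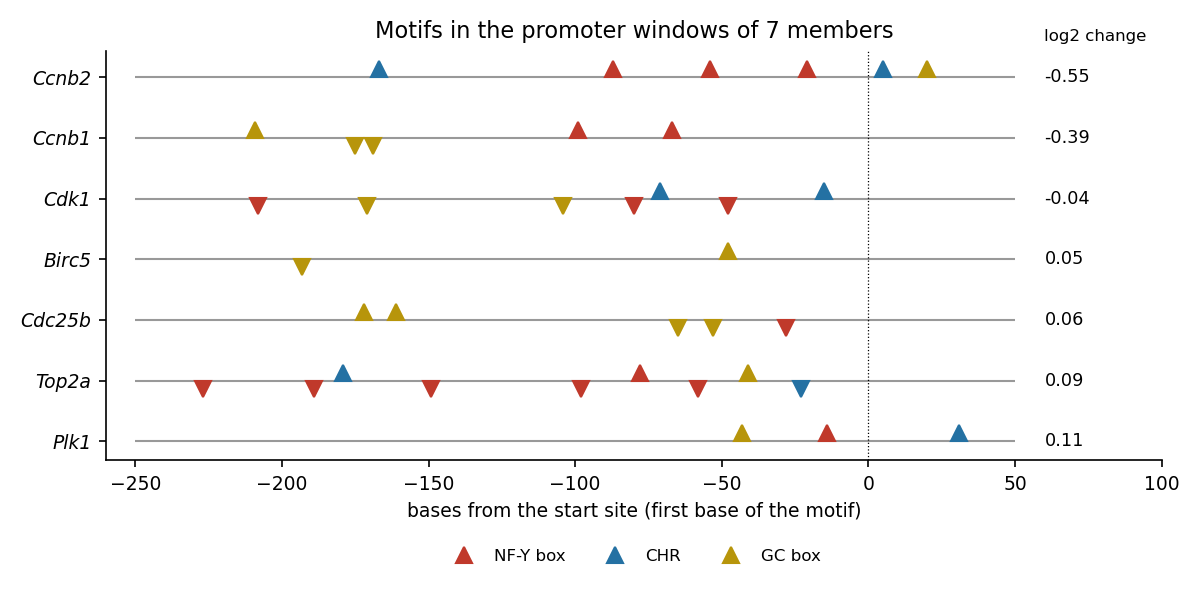
Positions of CCAAT matches (drawn as NF-Y boxes), CHR cores and GC boxes in the promoter windows of the 7 genes that have one, by distance from the start site in bases, with upward triangles on the gene's strand, downward triangles on the other, and the log2 change at the right. CCAAT boxes stand 32 or 33 bases apart in Ccnb2, Ccnb1 and Cdk1, crowd the Top2a window with 6, and are missing from Birc5.

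The knockdown itself was checked first. Levels are given as log2 normalized signal, the log2 of a probe's processed intensity minus the 75th percentile of its array, so that a value of 0 is the level of that percentile. Nfyc, which encodes NF-YC, read 3.997, 3.93 and 3.98 in the control arrays and 2.12, 2.20 and 2.18 in the knockdown arrays, a change of -1.81 (limma adjusted p = 0.000323). Nfya, which encodes the subunit that recognizes the CCAAT sequence, read 0.14, 0.15 and 0.21 in the control arrays and -0.66, -0.52 and -0.59 in the knockdown arrays, a change of -0.76 (limma adjusted p = 0.00128). Both targeted mRNAs were therefore lower in every knockdown array, as their labels say. Nfyb, the subunit that was not targeted, was higher by 0.83 (limma adjusted p = 0.00131), with means of 1.08 ± 0.094 and 1.91 ± 0.013 (SD, n = 3 each).

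Of the 10 G2/M genes, only Cdc25c was down-regulated past the threshold used for a call, an adjusted p below 0.05 with a change over 1.5-fold. Ccnb2 and Ccnb1 were lower and Foxm1 higher by smaller amounts that passed the adjusted p alone, and the remaining 6 genes did not pass it. The share called was 10% (1 of 10), against 8.9% of all genes tested (5% lower and 3.91% higher). By the adjusted p alone it was 40% (3 lower and 1 higher), against 31.5% of all genes (15.8% lower and 15.7% higher). The median change of the 10 genes was 0.0078 on the log2 scale, and that of all genes 0.0053. All 17 probes of the 10 genes were tested, and each exceeded background clearly on the 6 arrays. Of these probes 5 passed the adjusted p (1 of Cdc25c, 1 of Ccnb2, 1 of Ccnb1 and 2 of Foxm1), or 29.4%, against 22.8% of all probes. All genes called split into 824 lower and 644 higher, and into 584 and 278 after normexp background correction of the median signal.

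**Figure D2:**
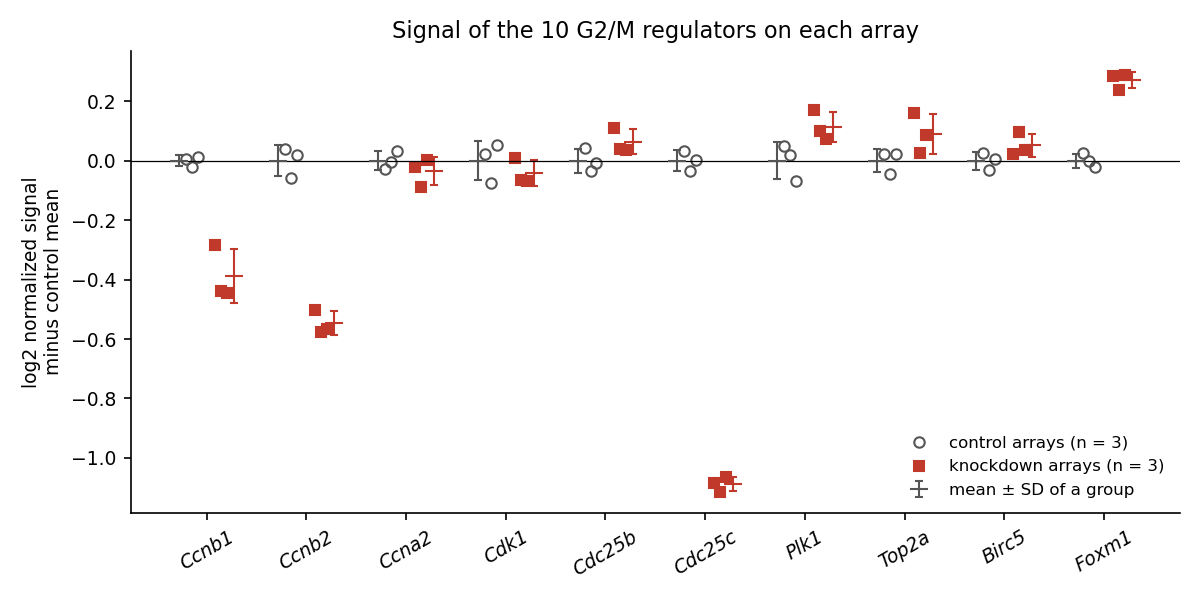
Log2 normalized signal of the brightest probe of each of the 10 G2/M genes, minus the mean of its 3 control arrays, with 1 point per array and a dash with error bars for the mean and SD of the 3 control or 3 knockdown arrays. The groups stand farthest apart in Cdc25c, followed by Ccnb2, Ccnb1 and Foxm1, whereas in the other genes they lie close together or overlap.

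Cdc25c encodes 1 of the phosphatases that activate Cdk1 at the entry into mitosis. Its probe read 0.62, 0.55 and 0.59 in control cells and -0.50, -0.53 and -0.48 in knockdown cells. Every knockdown array was far below every control array, and the arrays of a group differed little among themselves. The mean went from 0.58 ± 0.035 (SD, n = 3) to -0.50 ± 0.025 (SD, n = 3), a change of -1.09 (SE 0.043, 95% interval -1.20 to -0.98, limma adjusted p = 0.000374), or 2.13-fold lower. Only 288 of the 16490 genes (1.75%) had a more negative change. Cdc25c was called under all 19 alternative settings, with changes from -1.11 to -1.05.

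Cdc25b, the phosphatase that acts on Cdk1 in late G2 at the centrosomes, gave a different result. It read 3.63, 3.55 and 3.58 in control cells and 3.70, 3.63 and 3.62 in knockdown cells. The groups overlapped, and the change of 0.063 (SE 0.047, 95% interval -0.057 to 0.18, limma adjusted p = 0.401) did not pass the threshold. To compare the relatives directly, the difference between their signals was taken within each array, where scaling cancels. The change of Cdc25b exceeded that of Cdc25c by 1.15, with an SD of 0.010 over the control arrays and 0.047 over the knockdown arrays. The groups did not overlap, and the two-sided exact permutation test gave p = 0.1 (0.15 after Benjamini-Hochberg adjustment over 3 pairs of relatives), the smallest p that 3 against 3 arrays allow.

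The cyclins B are the regulatory partners that carry Cdk1 through mitosis. Ccnb2 read 4.60, 4.50 and 4.58 in control cells and 4.06, 3.99 and 3.996 in knockdown cells. All 3 knockdown arrays lay below all 3 controls. The mean went from 4.56 ± 0.052 to 4.01 ± 0.040 (SD, n = 3 each), a change of -0.55 (SE 0.050, 95% interval -0.67 to -0.42, limma adjusted p = 0.00221). This was 1.46-fold lower and so just short of a call. Over the alternative settings the change of Ccnb2 ran from -0.58 to -0.49 and the limma adjusted p from 4.328e-06 to 0.0331.

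Ccnb1, on its brightest probe, read 5.14, 5.11 and 5.14 in control cells and 4.84, 4.69 and 4.68 in knockdown cells. The groups were again separate, with the first knockdown array nearest to the controls. The change was -0.39 (SE 0.060, 95% interval -0.54 to -0.24, limma adjusted p = 0.0103), or 1.31-fold lower. The other probes of Ccnb1 moved less. A_55_P1952256 changed by -0.12 (95% interval -0.25 to 0.015, limma adjusted p = 0.177) and A_55_P2128668 by -0.077 (95% interval -0.22 to 0.063, limma adjusted p = 0.381). Within arrays the brightest probe, A_55_P2065671, changed by -0.27 and -0.31 relative to these, with p = 0.1 in each exact permutation test, a comparison chosen after the values were seen. As the probes disagree, the size of the Ccnb1 change is uncertain, and the mean over its probes was -0.19 (limma adjusted p = 0.0237).

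The array position adds a further limit. The 3 control arrays and the first knockdown array were in row 1 of the slide and the other knockdown arrays in row 2, which holds no control. With the row as a block, which compares only arrays of row 1, Ccnb1 changed by -0.28 (limma adjusted p = 0.0676) and Ccnb2 by -0.50 (limma adjusted p = 0.0331), so that Ccnb1 no longer passed. The change of Ccnb1 was less negative than that of Ccnb2 by 0.16 within arrays. The groups did not overlap in this difference (exact permutation p = 0.1, adjusted 0.15).

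Ccna2 encodes cyclin A2, which pairs with Cdk2 in S phase and with Cdk1 in G2. It read 4.14, 4.16 and 4.20 in control cells and 4.14, 4.08 and 4.17 in knockdown cells, with overlap. Its change of -0.036 (SE 0.047, 95% interval -0.15 to 0.083, limma adjusted p = 0.632) did not pass and turned to 0.023 under quantile normalization and 0.022 under normexp with quantile normalization. Cdk1, the kinase itself, read 3.89, 3.79 and 3.92 in control cells and 3.88, 3.80 and 3.80 in knockdown cells, also with overlap. Its change of -0.042 (SE 0.054, 95% interval -0.18 to 0.096, limma adjusted p = 0.633) did not pass either and was above 0 under 4 alternatives, the highest 0.047. The dimmer Cdk1 probes changed by -0.16 and -0.18, with wider intervals (-0.40 to 0.091 and -0.46 to 0.098) and limma adjusted p-values of 0.317 and 0.305. The mean over the 3 Cdk1 probes changed by -0.13 (limma adjusted p = 0.0459). As in Ccnb1, the result for Cdk1 thus depended on how the probes were read, and the changes of Cdk1 and the cyclins were not tested against each other.

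Plk1, the polo-like kinase that drives centrosome maturation and spindle assembly, read 5.78, 5.75 and 5.66 in control cells and 5.90, 5.83 and 5.80 in knockdown cells. The knockdown arrays were all above the controls, but only narrowly. The change was 0.11 (SE 0.055, 95% interval -0.026 to 0.25, limma adjusted p = 0.208), and it passed the adjusted p only under quantile normalization (0.0383). Top2a, the topoisomerase that untangles chromosomes before they separate, read 4.85, 4.78 and 4.85 in control cells and 4.98, 4.85 and 4.91 in knockdown cells. Here too the knockdown arrays were above the controls by a small margin, with a change of 0.090 (SE 0.054, 95% interval -0.047 to 0.23, limma adjusted p = 0.299). Top2a, with the most CCAAT matches among these genes, was thus not among those that were lower. Its paralog Top2b, which is also made in cells that do not divide, changed by -0.016 (limma adjusted p = 0.897), and the difference between the paralogs was 0.11 with overlapping groups (exact permutation p = 0.2, adjusted 0.2).

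Birc5 encodes survivin, a subunit of the chromosomal passenger complex. It read 6.63, 6.57 and 6.61 in control cells and 6.62, 6.70 and 6.64 in knockdown cells, and the groups overlapped. The change was 0.052 (SE 0.044, 95% interval -0.061 to 0.16, limma adjusted p = 0.465), and its other probes gave 0.077 and 0.083 (limma adjusted p = 0.293 and 0.281). The 3 probes of Birc5 thus gave changes of like size.

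Foxm1 encodes the transcription factor that acts with Myb-MuvB on many G2 promoters, and it was the only member that was higher at the adjusted p. It read 3.11, 3.08 and 3.06 in control cells and 3.37, 3.32 and 3.37 in knockdown cells. Every knockdown array was above every control array. The mean went from 3.08 ± 0.024 to 3.35 ± 0.028 (SD, n = 3 each), a change of 0.27 (SE 0.041, 95% interval 0.17 to 0.38, limma adjusted p = 0.0101), or 1.21-fold higher. Its dimmer probe moved the same way, from 0.30, 0.20 and 0.28 to 0.46, 0.46 and 0.47 (change 0.21, limma adjusted p = 0.0317). With the slide row as a block the change was 0.29, and it no longer passed (limma adjusted p = 0.0760).

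**Figure D3:**
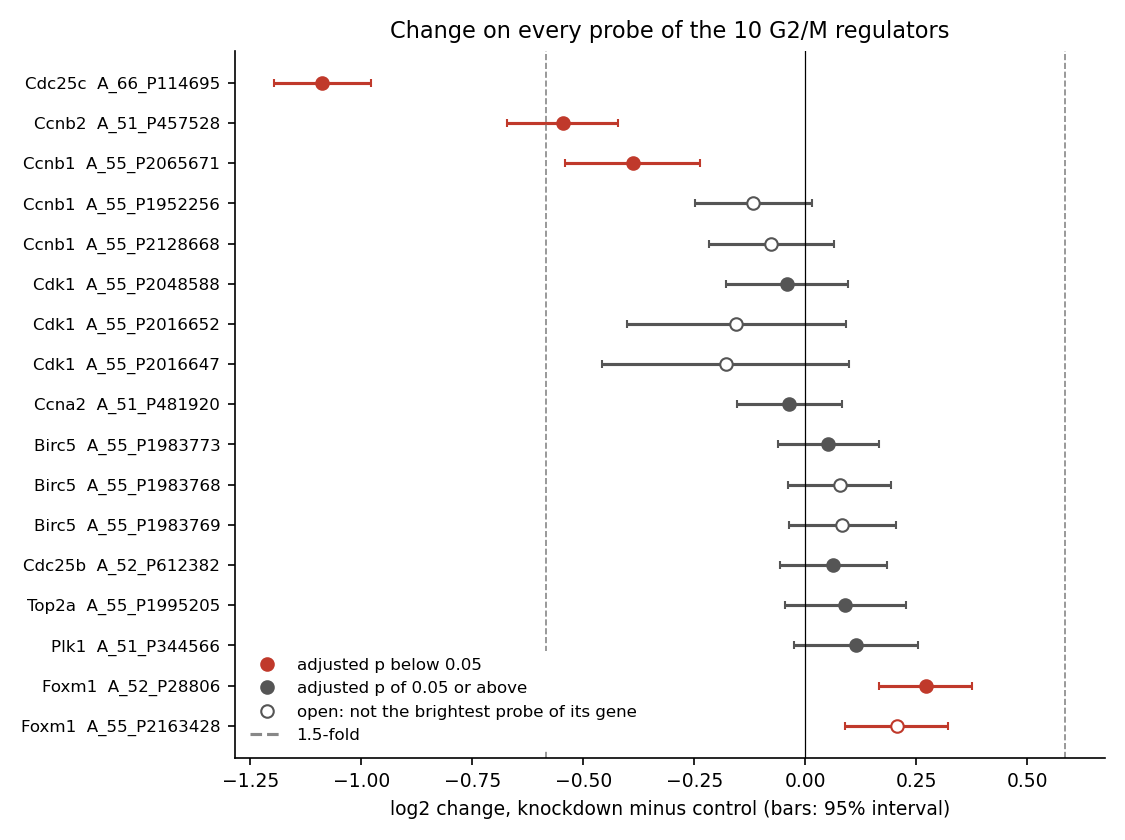
Change on the log2 scale (knockdown minus control) with its 95% interval for each of the 17 probes of the 10 G2/M genes, with filled points for the brightest probe of a gene and dashed lines at 1.5-fold. Cdc25c lies beyond the line, the interval of Ccnb2 crosses it, and the 3 probes of Ccnb1 spread from -0.39 to -0.077.

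Set in order, the changes ran from Cdc25c (-1.09) through Ccnb2 (-0.55) and Ccnb1 (-0.39) to Foxm1 (0.27), with 6 genes between -0.042 and 0.11. In 3 genes all knockdown arrays were below all controls, in 3 they were above, and in 4 the groups overlapped. Over all genes, 54.7% did not overlap (27.1% below and 27.7% above). For each of the 9 genes that were not called except Ccnb2, the 95% interval lay within a change of 1.5-fold in either direction.

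The number of CCAAT matches was set beside these changes as a description. With 6 matches Top2a changed by 0.090, and with 3 each Ccnb2 changed by -0.55 and Cdk1 by -0.042. With 2 Ccnb1 changed by -0.39, with 1 each Cdc25b changed by 0.063 and Plk1 by 0.11, and with none Birc5 changed by 0.052. The 32 or 33 base spacing, picked out only after these windows were seen, occurred in Ccnb2, Ccnb1 and Cdk1. Of these, Ccnb2 and Ccnb1 were the members with a window that were lower at the adjusted p, and Cdk1 was not. A link between spacing and change was not tested. Across the 13098 tested genes with a window, the share called lower was 3.88% for 0 matches (7521 genes), 5.35% for 1 (3570), 6.89% for 2 (1349) and 12.8% for 3 or more (658). The share called higher was 4.15%, 3.45%, 3.11% and 2.13% over the same classes, and the median change 0.022, -0.0049, -0.030 and -0.097. These shares were not tested. A gene with several windows was classed by the window with the most matches, so more windows gave more chances of a high class. The targeted genes Nfya and Nfyc were counted too.

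**Figure D4:**
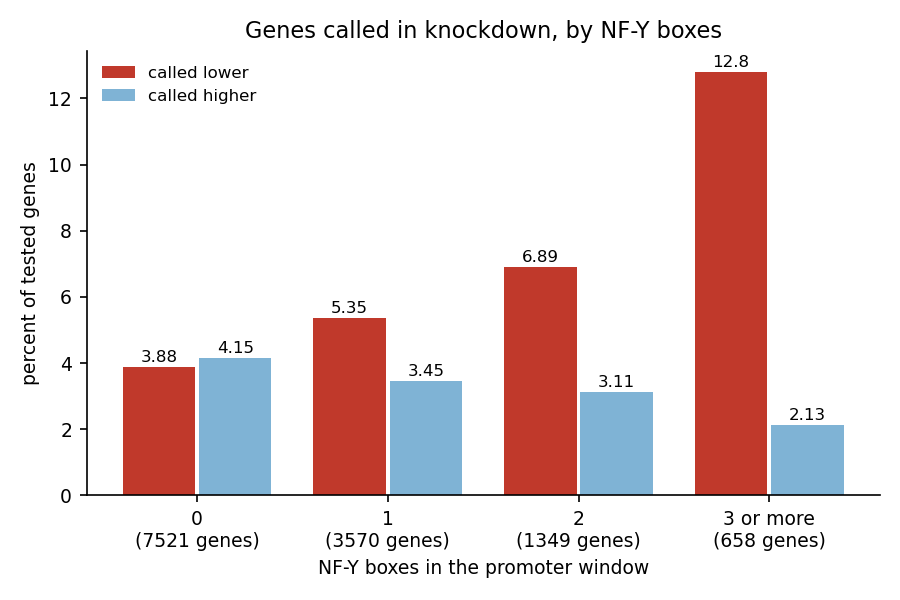
Share of tested genes called lower and higher (percent, bars from 0) by the number of CCAAT matches (NF-Y boxes) in the promoter window, over 13098 genes. Where a gene has several windows, the one with the most matches counts. The share called lower is 3.88% without a match and 12.8% with 3 or more, the class that holds Ccnb2, Cdk1 and Top2a.

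The wider machinery was described from gene lists on the same circuit. Of 24 other regulators of the Cdk1-cyclin switch tested, 3 were called lower (12.5%, beside 5% of all genes) and 0 higher (beside 3.91%). At the adjusted p alone 8 were lower and 5 higher (54.2%, beside 31.5% of all genes). Cks1b, a small subunit that binds Cdk1 and helps it to engage substrates, went from 4.21, 4.23 and 4.23 to 3.19, 3.08 and 3.22, a change of -1.06 (limma adjusted p = 0.000528). Arpp19, which inhibits the phosphatase PP2A-B55 when mitosis begins, went from -1.78, -1.87 and -1.74 to -3.07, -3.11 and -2.91, a change of -1.23 (limma adjusted p = 0.000815) that was -0.82 after normexp background correction of the median signal. Both proteins favor mitotic phosphorylation by Cdk1, whereas the last of the 3, Cdkn1a, encodes the inhibitor p21. Cdkn1a went from 2.23, 2.21 and 2.19 to 1.20, 1.08 and 1.25 on its brightest probe, a change of -1.03 (limma adjusted p = 0.000669). Its other probe did not clear background in any of the 6 arrays, and the mean of the probes changed by -0.25 and was not called.

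Of the 18 genes of the anaphase-promoting complex, which ends mitosis by marking cyclin B for degradation, 1 was called lower (5.56%, beside 5% of all genes) and 0 higher. At the adjusted p alone 4 passed in each direction (44.4%, beside 31.5% of all genes). The called gene was the subunit gene Cdc23, at -0.87 (SE 0.075, limma adjusted p = 0.00190). Its probe was dim, and after normexp background correction of the median signal its change was -0.5853, only just past the 1.5-fold threshold (0.585 on the log2 scale). The subunit genes Anapc5 and Cdc27 changed by -0.38 and -0.36 (limma adjusted p = 0.00890 and 0.00971). Of the 13 DREAM and Myb-MuvB genes none was called in limma, and 7 had an unadjusted limma p below 0.05, beside 7613 of all 16490 genes. At the adjusted p 1 was lower and 3 were higher (30.8%, beside 31.5% of all genes). The largest of these changes were in E2f5, a repressor subunit, at -0.37 (limma adjusted p = 0.0460), Mybl1, an activator, at 0.27 (0.0256) and the DNA-binding subunit gene Lin54 at 0.24 (0.0486).

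Among 35 other late cell cycle genes, 2 were called lower (5.71%, beside 5% of all genes) and 0 higher. At the adjusted p 9 were lower and 3 higher (34.3%, beside 31.5%). Aurkb, the kinase that works in 1 complex with survivin, went from -2.45, -2.52 and -2.40 to -4.03, -4.31 and -4.15, a change of -1.70 (SE 0.085, limma adjusted p = 0.000543), or 3.26-fold lower. Though dim, the Aurkb probe exceeded background clearly on the 6 arrays, but after normexp background correction of the median signal its change was -0.88, and -0.94 with quantile normalization as well. Thus Aurkb and Birc5, which encode subunits of the same complex, gave values of -1.70 and 0.052, the former on a dim probe. Incenp and Cdca8, also of that complex, changed by -0.20 (limma adjusted p = 0.0526) and 0.095 (limma adjusted p = 0.199). Both were added after the values were seen. Cdca3, a trigger of mitotic entry, changed by -0.80 (SE 0.044, limma adjusted p = 0.000669), and the spindle checkpoint gene Bub1b by -0.43 (limma adjusted p = 0.00217). Across the 90 genes of these 4 lists, 6.67% were called lower and none higher, beside 5% and 3.91% of all genes. At the adjusted p alone 41.1% passed (22 lower and 15 higher), beside 31.5%, and the median change was 0.0075.

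**Figure D5:**
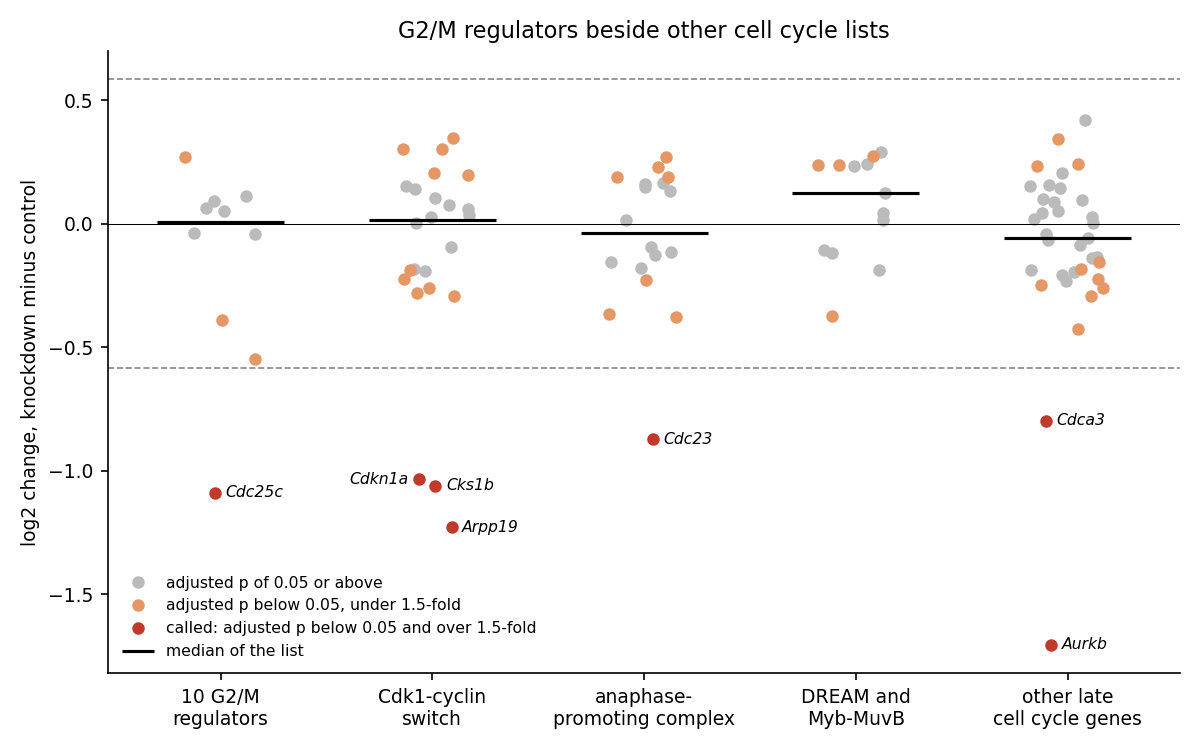
Change on the log2 scale (knockdown minus control) of each gene in the 10 G2/M regulators and the 4 lists of other cell cycle genes, with a line for the median of each list and dashed lines at 1.5-fold. The medians lie between -0.060 and 0.12, and the genes past the lower line are Cdc25c, Arpp19, Cks1b, Cdkn1a, Cdc23, Aurkb and Cdca3.

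Family relatives of the members were compared in the same way. Of 10 relatives tested, 1 was called lower and 0 higher (10%, beside 8.9% of all genes). At the adjusted p alone 2 were lower and 1 higher (30%, beside 31.5%). The called gene was Xiap, which like Birc5 encodes a protein with an IAP repeat and which inhibits caspases, at -0.75 (SE 0.061, limma adjusted p = 0.00172). Birc2 changed by -0.15 (limma adjusted p = 0.0722). Plk4, which starts centriole duplication, was higher by 0.29 (limma adjusted p = 0.0103), and Plk3 changed by 0.26 (limma adjusted p = 0.0620), while Plk2 was not tested. Cdc25a, which acts earlier in the cycle than its relatives Cdc25b and Cdc25c, changed by -0.19 (limma adjusted p = 0.0224).

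The identity of the cells was checked with marker genes. All 15 markers of neuroblastoma and sympathetic neurons cleared background everywhere, as did 13969 of all 16490 genes tested, so this alone says little on identity. Their summed level, in units of each array's 75th percentile, was 403 to 413 in control cells and 384 to 398 in knockdown cells, without overlap. Of these markers 2 were called lower, Mycn (-0.69) and Th (-0.62), and 0 higher (13.3%, beside 8.9% of all genes). At the adjusted p alone 4 were lower and 3 higher (46.7%, beside 31.5%). Changes of the 15 markers ran from -0.69 to 0.56, with a median of 0.040, so they did not move in 1 direction. Markers of other cell types were measured too, and their summed levels in control and knockdown arrays overlapped for fibroblasts (0.230 to 0.275 and 0.263 to 0.305), immune cells (4.21 to 5.66 and 3.99 to 4.60) and epithelia (0.324 to 0.375 and 0.335 to 0.386). For glia they did not overlap, with 1.19 to 1.25 in control and 0.866 to 0.933 in knockdown cells. The fibroblast markers called were Pdgfra, higher by 1.29, and Col1a1, at -0.77, and 4 of 6 fibroblast, 5 of 6 glial, 3 of 4 immune and 3 of 4 epithelial markers tested were clearly above background on all arrays. The part of such cells in the changes above was not tested. The arrays were alike in brightness, with 75th percentiles of 718 to 754 intensity units and 61.9% to 66.2% of spots well above background, and their number limits the precision.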

How the data were processed

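RNA of transfected N2a cells was hybridized to 6 Agilent arrays, 3 per group, grouped by the sample titles. The authors deposited scanner tables made with Agilent Feature Extraction 10.10.1.1 (per the file headers), from which the processed intensity, median signal, background and the flags for outlier, saturated and well-above-background spots were used, and a table of log2 values, which the authors had scaled to each array's 75th percentile. Flagged outliers and control spots were left out, and repeated spots were averaged, leaving 55681 probes. From the deposited intensities, log2 processed signal minus the array's 75th percentile was computed. A probe was tested (42126 probes) when it reached the 20th percentile on all 3 arrays of at least 1 group, the low-expression limit named in the study's methods. Changes were tested with limma 3.58.1 in R 4.3.3, two-sided, with Benjamini-Hochberg adjustment over all probes. A gene was read from its brightest probe, and 25869 of 26392 probes with an NM accession were named through RefSeq. The scripts were tested on simulated data. Members and lists were chosen by name, with earlier results of these data known. Named genes were the members, NF-Y subunits, called list genes, the 3 largest changes at the adjusted p where a list had fewer than 3 calls, and a few relatives. Alternatives covered normalization, normexp background correction (offset 50, on median signal because the tables used have no mean signal column), filters, threshold, model, blocks, probe rule and each array left out. Replicate numbers, taken from the titles, were not used to pair the arrays in the main fit. The flags marked 0 spots as saturated.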

Additional observations from a re-analysis of the deposited data

How the results depend on the processing

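Of 695 values recomputed under 19 settings and 1 other motif definition, 669 kept their direction, their side of the call threshold or, for counts, stayed within 1.5 times. Many of these values could not turn, since changing the filter, threshold, variance trend or replicate block left each member's change the same. The number kept is therefore no measure of robustness. Direction turned for 2 genes near 0. Ccna2 became 0.023 with quantile normalization and 0.022 with normexp plus quantile normalization, and Cdk1 became 0.00022 with quantile normalization, 0.0014 with normexp, 0.047 with normexp plus quantile normalization and 0.0078 with the slide row as a block. With normexp, which also replaced the processed by the median signal, 278 genes were called higher in place of 644, or 286 with quantile normalization. The dim probes of Aurkb (-0.88), Arpp19 (-0.82) and Cdc23 (-0.59) changed less with normexp. Without a minimum fold change, Ccnb1 (-0.39), Ccnb2 (-0.55) and Foxm1 (0.27) were called, so that 3 members were lower and 1 higher, and 2602 genes were lower and 2597 higher. The lists then gave 8 lower and 5 higher (Cdk1-cyclin switch), 4 and 4 (anaphase-promoting complex), 1 and 3 (DREAM and Myb-MuvB), 9 and 3 (late cycle) and 2 and 1 (relatives). Cdkn1a was not called on the mean of its probes (-0.25). At the adjusted p alone, Cdc25b passed with normexp plus quantile normalization (0.0207). Leaving out 1 array gave 751 to 831 genes lower and 552 to 612 higher, Cdc25c from -1.11 to -1.07 and Ccnb1 from -0.44 to -0.36, with no call changed among the members. The same-numbered arrays correlated by 0.018, 0.067 and 0.0025 in their deviations, and no control and knockdown array correlated above 0.067 under any numbering. No pairing was thus seen, but 3 arrays per group cannot exclude a shared culture or batch. The numbers in the titles and the deposited files also differ. With the replicate number as a block, 765 genes were lower and 518 higher, Cdc25c remained called at -1.09, and the limma adjusted p became 0.0473 for Ccnb1 and 0.0543 for Foxm1. Apart from the values given here, the cause of each shift was not tested.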

Other observations

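The spacing of 32 or 33 bases between neighboring CCAAT matches, seen in Ccnb2, Ccnb1 and Cdk1, was counted over all promoter windows after these genes had been looked at. It was present in 186 of 3842 windows with 2 or more matches (4.84%), or 0.566% of all windows. Of 124 tested genes with such a pair in any of their windows, 14 were called lower (11.3%) and 1 higher, with a median change of -0.12. Of 1883 tested genes with 2 or more matches and no such pair, 163 were called lower (8.66%), with a median change of -0.048. The difference between these shares was not tested. The 14 genes included Cdca3, the mitotic entry gene named above, at -0.80, with boxes 33 bases apart. They also included Ska2, a subunit of a kinetochore complex, at -0.66, Kmt5a, the methyltransferase that places a single methyl group on lysine of histone H4 and is regulated through the cell cycle, at -0.80, and Tmpo, which encodes lamina-associated polypeptides of the nuclear envelope, at -0.88. Mvd, an enzyme of the mevalonate pathway, changed by -0.94, and Dolpp1, an enzyme of dolichol recycling, by -1.71. These genes were chosen after their values were seen. Of the other genes called lower in the cell cycle lists and among the relatives, those with a promoter window had no such pair. No window was found for Aurkb and Cdc23, nor for the member Cdc25c, so their spacing is not known here. Cks1b held 4 CCAAT matches with gaps of 40 to 88 bases, while Arpp19, Cdkn1a and Xiap held 0 in any of their windows.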
